A study of Mus musculus with 103 samples.

Results

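In thioglycollate-elicited mouse macrophages, 140 genes carried much less RNA at 6, 12 and 24 h of KLA than in untreated cells. They were chosen on these values: RPKM (read density over a transcript, per kilobase and relative to all reads of the library) of at least 5 in 1 library, and a log2 ratio of RPKM + 1 of at most -1.5 at all 3 times, relative to the median of all genes. Of 7739 genes that reached the RPKM limit, 1.81% met the rule, or 1.35% of the 10383 genes tested below, and the table holds 22798 gene symbols of 200 bases or more in length. KLA (Kdo2-lipid A) is the lipid anchor of bacterial lipopolysaccharide and activates the receptor TLR4. The libraries used were KLA for 1, 6, 12 or 24 h at 100 ng/ml, an untreated control for 1 to 12 h, and a separate untreated control for 24 h. All came from peritoneal cells of male C57BL/6 mice aged 6 to 8 weeks that were kept overnight in 0.5% serum before treatment. Each condition had 1 library, so differences have no replicate check and no p-value is given. Binding of LXR and SREBP1 was given as 1 peak list each from such macrophages, titled as treated with the LXR agonist GW3965. The label gives 1 uM for 18 h for SREBP1 but reads as a control for LXR.

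TLR4 signalling switches on NF-κB and interferon regulatory factors, and macrophages then make cytokines at high levels. At the same time they shut down many genes of their resting state, among them genes for lipid handling, for chemotaxis and for restraint of growth. PPARγ, encoded by Pparg, is a nuclear receptor that drives lipid storage genes such as Fabp4 in macrophages. FOXO factors and the glucocorticoid receptor drive another group of resting-state genes, which includes Tsc22d3, Sesn1 and Fbxo32.

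The libraries held 1880393 to 2306610 reads in genes, and 1 read in a transcript of 1 kb was worth 0.374 to 0.453 RPKM. All 9 macrophage markers in the table reached 5 RPKM or more. Their summed RPKM was 7467, 8038 and 6858 at 6, 12 and 24 h of KLA, against 11770 and 9621 in the untreated libraries, and they differed in both directions: Lyz2 had 3936 RPKM at 24 h of KLA, against 7040 RPKM without, and Fcgr1 had 127 RPKM, against 15.5 RPKM. The summed RPKM of 8 T cell markers was 1.13 to 11.0, with Lck reaching 10.6 RPKM at 6 h of KLA, and the 3 CD3 chain genes stayed at or below 0.732 RPKM. The summed RPKM of 8 B cell markers was 8.79, 5.98 and 7.87 at 6, 12 and 24 h of KLA, against 13.8 and 11.2 in the untreated libraries. That of 8 neutrophil markers was 51.7, 80.0 and 123 at 6, 12 and 24 h of KLA, against 41.1 and 46.2 untreated, most of it S100a8. Camp had 4.78 and 4.38 RPKM at 12 and 24 h of KLA, against 0 in both untreated libraries, and Retnlg 0.616 RPKM at 24 h of KLA. S100a9, Mpo, Elane, Ngp and Cxcr2 were at 0 in these KLA libraries. Fibroblast and mesothelial markers, 8 genes, summed to 105, 102 and 187 RPKM, against 126 and 124 RPKM untreated. They differed in both directions at 24 h: Dcn had 104 RPKM with KLA, against 59.5 RPKM without, and Col3a1 10.2 RPKM, against 15.5 RPKM. The 7 dendritic cell markers summed to 7.79, 6.93 and 9.38 RPKM, against 2.18 and 2.30 RPKM. Most of that sum with KLA was Ccr7, at 7.26, 6.21 and 8.90 RPKM, against 0.919 and 0.783 RPKM untreated. Cd209a was at 0 in these KLA libraries, against 0.917 and 0.782 RPKM untreated. None of the listed markers is among the 140 genes, and the part of other cell types in the results was not tested. In bulk RNA, fewer cells of a type and less RNA per cell cannot be told apart.

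Together the 140 genes held 0.283%, 0.329% and 0.387% of the reads in genes at 6, 12 and 24 h of KLA, against 2.10% and 2.24% in the untreated 1 to 12 h and 24 h libraries. At 1 h of KLA the share was 1.61%. Without Fabp4, the summed RPKM of the group was 4252 at 1 h of KLA, against 5795 and 5873 in the untreated 1 to 12 h and 24 h libraries. Their median level was 22.5 RPKM without KLA, 16.1 at 1 h, 2.35 at 6 h and 2.36 at 12 h. It was 3.33 RPKM at 24 h of KLA, against 21.0 RPKM in untreated cells at 24 h. Being low at 6, 12 and 24 h is what selected them, so these levels are a description. The median log2 ratios were -2.16, -2.18 and -2.16 at the 3 times. Among the 10383 tested genes (those reaching an RPKM of 1 in 2 libraries), 3.7%, 3.23% and 3.75% were at or below -1.5 at 6, 12 and 24 h. In 138 of the 140 genes all 3 late KLA libraries lay below both untreated libraries and below 1 h of KLA. The exceptions were Tsc22d3 and Gadd45g, whose 1 h levels were already low.

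**Figure D1:**
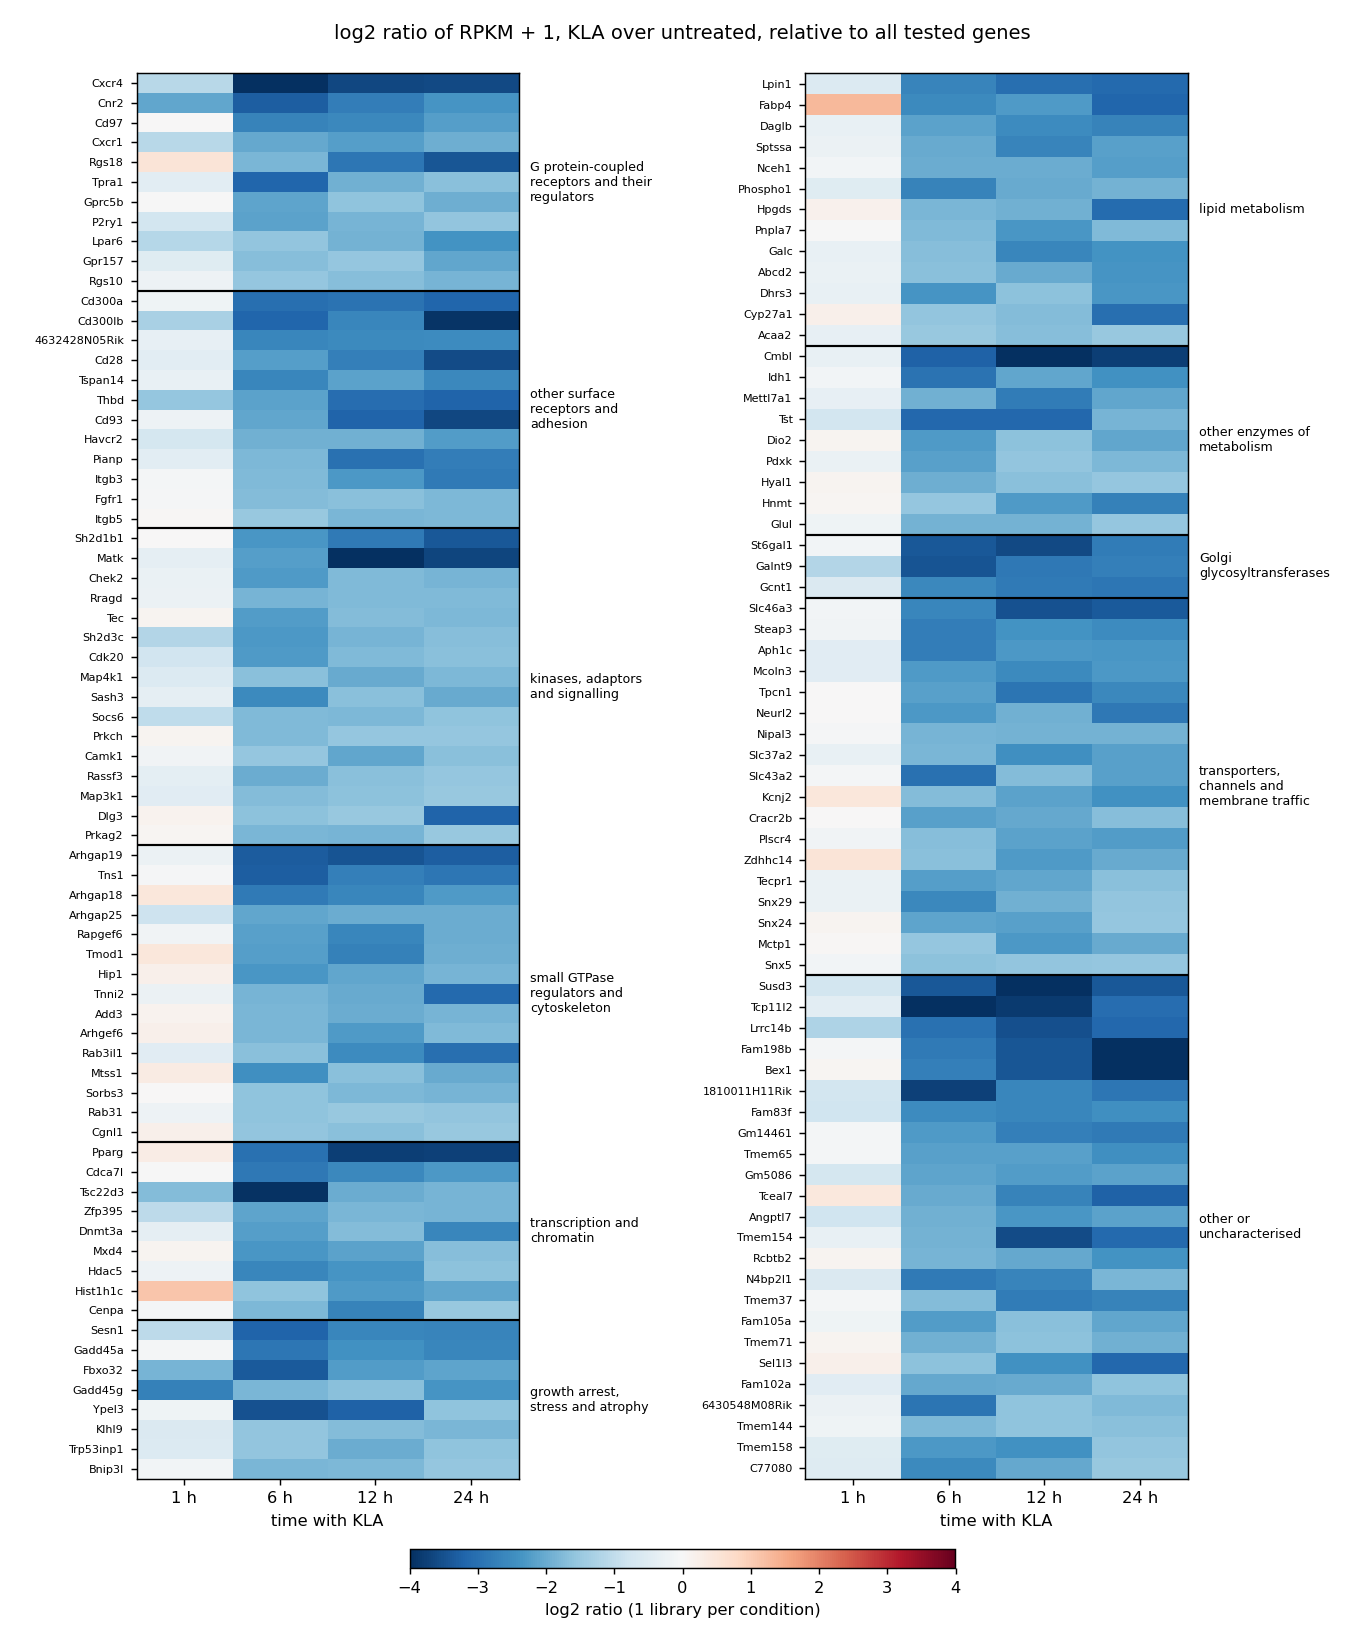
Heat map of 138 of the 140 genes, grouped by role, with the time of KLA across and the log2 ratio of RPKM + 1 (KLA over untreated, relative to all tested genes) as colour, 1 library per condition. The colour scale ends at -4 and 4. Blue fills the 6, 12 and 24 h columns by selection, while the 1 h column is mostly pale, with a median of -0.21 over all 140.

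The choice has a sharp limit and a continuous distribution around it. Just inside it stood Rab31, Dlg3, Acaa2, Cgnl1 and Prkag2, whose highest log2 ratio over the 3 times was -1.52 to -1.51. Just outside were 5031439G07Rik, Il6ra, Tnfsf12, Mxi1 and Pdcd4, with -1.49 to -1.48. Tnfsf12, which encodes the cytokine TWEAK, had ratios of -1.73, -1.69 and -1.49 at 6, 12 and 24 h. The 95% counting intervals given with folds cover counting error only.

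Chemokine receptor Cxcr4 (NM_009911, chr1:130484776-130488876, mm9), which holds leukocytes in tissues that make CXCL12, had the lowest value of the measure the rule used, the highest of the 3 ratios (-3.60). Its RNA was at 124 RPKM without KLA, 50.6 at 1 h, 2.79 at 6 h and 6.99 at 12 h. With KLA for 24 h it stood at 5.98 RPKM, against 89.5 RPKM in the untreated 24 h library. It was 44.5-fold lower at 6 h (95% counting interval 25.2 to 86.7) and 15.0-fold lower at 24 h (10.3 to 22.6). The lowest level was at 6 h, and already at 1 h it lay below both untreated libraries.

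Susd3, a sushi-domain membrane protein gene, came next, at 29.8, 15.7, 1.11 and 0.358 RPKM at 0, 1, 6 and 12 h. After 24 h of KLA it was at 0.654 RPKM, against 17.6 RPKM without. Here and below, 0 h stands for the untreated 1 to 12 h library, and no library is labelled as taken at 0 h. Arhgap19, a gene for a GTPase-activating protein, had 12.9 RPKM without KLA and 9.63 at 1 h, and no read at 6 and 12 h. That makes it at least 51.6-fold lower at 6 h and at least 53.3-fold lower at 12 h, with 3 reads per library as the floor. With 24 h of KLA it had 0.961 RPKM, against 19.5 RPKM without, a 20.3-fold difference (11.6 to 38.6). Both genes were thus near or below the detection limit at 6 and 12 h. At 24 h of KLA Susd3 had 2 reads and Arhgap19 had 13.

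The promoters below show the 250 bases before the start for the strongest case (Cxcr4), the next one (Susd3), the adjacent receptor genes Cd300a and Cd300lb, St6gal1, and Gadd45g, the lowest at 1 h. They are RefSeq sequences of build GRCm38.p6, at chr1:128592300-128592549 (minus strand, Cxcr4), chr13:49248295-49248544 (minus, Susd3), chr11:114889791-114890040 (plus, Cd300a), chr11:114934372-114934621 (minus, Cd300lb), chr16:23290220-23290469 (plus, St6gal1) and chr13:51846425-51846674 (plus, Gadd45g). Capitals mark matches, on either strand, to the TATA box TATAAA, the forkhead motif TGTTTAC, the CRE motif TGACGTCA, the STAT motif TTCNNNGAA, the PU.1 motif GAGGAAG, the nuclear receptor half-site AGGTCA, the glucocorticoid receptor half-site AGAACA, the NF-Y motif CCAAT, the SP motif GGGCGG or the E-box CACGTG.
Cxcr4: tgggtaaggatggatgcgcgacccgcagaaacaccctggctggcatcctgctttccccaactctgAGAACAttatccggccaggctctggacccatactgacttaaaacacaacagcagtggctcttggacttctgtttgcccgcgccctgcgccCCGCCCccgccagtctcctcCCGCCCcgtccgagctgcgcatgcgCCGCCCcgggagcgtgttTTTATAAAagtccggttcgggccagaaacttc
Susd3: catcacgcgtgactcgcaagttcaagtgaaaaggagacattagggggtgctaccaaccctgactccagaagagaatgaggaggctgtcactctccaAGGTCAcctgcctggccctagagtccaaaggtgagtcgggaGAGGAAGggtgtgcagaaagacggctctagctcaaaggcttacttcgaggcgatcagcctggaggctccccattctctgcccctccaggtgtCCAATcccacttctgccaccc
Cd300a: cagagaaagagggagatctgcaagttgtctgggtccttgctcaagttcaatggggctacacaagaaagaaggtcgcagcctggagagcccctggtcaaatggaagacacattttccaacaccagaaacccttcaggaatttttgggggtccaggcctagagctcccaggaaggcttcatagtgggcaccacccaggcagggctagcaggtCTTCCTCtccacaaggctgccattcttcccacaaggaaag
Cd300lb: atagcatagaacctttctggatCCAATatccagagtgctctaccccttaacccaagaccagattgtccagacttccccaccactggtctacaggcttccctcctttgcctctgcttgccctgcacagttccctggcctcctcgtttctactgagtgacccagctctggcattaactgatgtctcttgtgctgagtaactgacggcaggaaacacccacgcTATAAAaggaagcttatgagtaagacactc
St6gal1: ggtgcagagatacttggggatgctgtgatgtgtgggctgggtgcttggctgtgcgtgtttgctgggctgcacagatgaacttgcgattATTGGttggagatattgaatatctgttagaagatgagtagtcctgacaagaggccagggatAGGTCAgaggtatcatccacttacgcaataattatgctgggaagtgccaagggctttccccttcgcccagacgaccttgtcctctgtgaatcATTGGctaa
Gadd45g: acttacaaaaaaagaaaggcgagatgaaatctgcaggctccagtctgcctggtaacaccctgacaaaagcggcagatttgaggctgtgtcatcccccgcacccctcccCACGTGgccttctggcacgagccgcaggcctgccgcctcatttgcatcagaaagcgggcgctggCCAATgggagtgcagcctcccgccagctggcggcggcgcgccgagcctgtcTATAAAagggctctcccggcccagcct
Cxcr4, Cd300lb and Gadd45g each hold TATAAA 22 to 32 bases before the start. In Cxcr4 it lies on both strands, overlapping. Of all 32851 mouse promoter windows of this length, 12.4% hold that motif. Cxcr4 also has 3 matches to GGGCGG (32.7% of windows) and 1 to AGAACA (16.1%). Susd3 and St6gal1 hold AGGTCA, found in 14.0% of windows, 154 and 101 bases before the start. The PU.1 letters, in 10.6% of windows, stand 40 bases before the start of Cd300a and 113 bases before that of Susd3. CCAAT was matched in Susd3, Cd300lb, St6gal1 and Gadd45g (33.8% of windows), and CACGTG in Gadd45g (6.02%). The letters of the forkhead, CRE and STAT motifs (in 3.17%, 1.55% and 7.02% of all windows) were not found in these 6. A match is a run of letters and says nothing about binding. A promoter was matched for 108 of the 140 genes (77.1%). As this is under 80%, a comparison of base composition or motifs over the whole group is void and none is given.

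Receptors coupled to G proteins, and regulators of their signalling, made up 11 of the genes. Besides Cxcr4 they were Cxcr1 (a receptor for neutrophil-attracting chemokines), Cnr2 (the cannabinoid receptor of immune cells), P2ry1 (an ADP receptor), Lpar6 (a lysophosphatidic acid receptor), Cd97 (an adhesion receptor), Gpr157, Gprc5b, Tpra1, Rgs10 and Rgs18. Cnr2 (NM_009924, chr4:135451319-135476125) had 13.9 RPKM without KLA, 2.16 at 1 h, 0.109 at 6 h and 0.741 at 12 h. With KLA at 24 h it had 2.13 RPKM, against 16.0 RPKM without. Its 6 h library held only 1 read, so the 127-fold difference has an interval of 22.4 to 5057. Cd97 was the most abundant of the 11, at 172, 154, 18.6 and 22.1 RPKM at 0, 1, 6 and 12 h. After 24 h Cd97 had 35.7 RPKM with KLA, against 181 RPKM without, a 5.08-fold difference (4.46 to 5.79). The RGS proteins end G protein signals, and Rgs10 had 27.4 RPKM at 24 h of KLA, against 109 RPKM in untreated cells.

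From a list of 44 tested G protein-coupled receptors and regulators, 10 were at least 2-fold lower at all 3 times (3.59% of all tested genes were). Of these, 5 are among the 140, and the others were Ccr2, C5ar2, Gpr160, Gpr183 and Lpar5. Genes of the 140 were counted by selection, here and in every list below. The lists were also chosen with earlier results of these data known, so their counts are descriptions and measure no enrichment. The list did not move in 1 direction, for 15 of its 44 genes were at least 2-fold higher at 6 h (13.9% of all tested genes). Fpr2, a formyl peptide receptor, was at 0.350, 0.965, 55.6 and 216 RPKM at 0, 1, 6 and 12 h. Low Cxcr4 and Cnr2 therefore stood beside high RNA of other receptors of the same class.

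Other surface receptors and adhesion molecules numbered 12. The immunoglobulin-like receptors Cd300a (NM_170758, chr11:114751355-114765965) and Cd300lb (NM_199221, chr11:114784095-114795700) are neighbours whose starts lie 44.3 kb apart on mm9. CD300A is an inhibitory and CD300LB an activating receptor of myeloid cells. Cd300a had 76.3, 60.1, 5.99 and 6.96 RPKM at 0, 1, 6 and 12 h. By 24 h Cd300a had 6.36 RPKM with KLA, against 69.9 RPKM without, an 11.0-fold difference (8.71 to 14.0). Cd300lb had 161 RPKM without KLA, 57.5 at 1 h, 12.1 at 6 h and 20.0 at 12 h. By 24 h Cd300lb had 9.35 RPKM with KLA, against 166 RPKM without, a 17.7-fold difference (14.0 to 22.8). The inhibitory and the activating receptor were thus both low from 6 h, and Cd300lb alone of the pair was more than 2-fold lower at 1 h. In a list of 35 tested receptors of this type these were the only 2 genes at least 2-fold lower at all 3 times (3.59% of all tested genes), and 10 of the 35 were at least 2-fold higher at 6 h (13.9%).

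Cd28 (NM_007642, chr1:60803232-60830203) encodes a co-stimulatory receptor best known from T cells. Its RNA was at 9.04, 5.70, 0.586 and 0.189 RPKM at 0, 1, 6 and 12 h. By 24 h Cd28 was at 0.0866 RPKM (1 read) with KLA, against 13.0 RPKM without, a 150-fold difference with an interval of 26.5 to 5961. The 8 T cell markers summed to 1.13 and 2.56 RPKM in the untreated 1 to 12 h and 24 h libraries, where Cd3d and Trat1 were at 0, and the part of T cells in the Cd28 values was not tested. Havcr2, which encodes the inhibitory receptor TIM-3, had 1.10 RPKM at 24 h of KLA, against 9.65 RPKM without.

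Thbd (thrombomodulin, an anticoagulant receptor) and Cd93 (a C-type lectin-like receptor) are adjacent on chromosome 2, with starts 35.3 kb apart. Thbd had 9.27 RPKM without KLA, 2.13 at 1 h, 0.680 at 6 h and none at 12 h. Thbd had 0.302 RPKM at 24 h with KLA, against 11.9 RPKM without. Cd93 followed later, with 73.3, 56.4, 11.9 and 5.48 RPKM at 0, 1, 6 and 12 h. It had 6.25 RPKM at 24 h of KLA, against 96.7 RPKM without. The integrin chains Itgb3 and Itgb5 were 14.5-fold (8.62 to 26.4) and 3.91-fold lower (3.17 to 4.85) at 24 h.

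Further neighbours within 100 kb were Tns1 and Cxcr1, Rcbtb2 and Lpar6, Tmem144 and Fam198b, and Bex1 and Tceal7. That gives 6 pairs, on 6 chromosomes, and the 140 genes as a whole lay on 20 chromosomes. Neighbours were not counted among other genes, so the number of pairs is a description and measures no clustering. Bex1 and Tceal7, small genes of one family on the X chromosome, have starts 8.53 kb apart. Bex1 had 57.1, 54.0, 5.36 and 3.31 RPKM at 0, 1, 6 and 12 h, and 0.864 RPKM at 24 h of KLA, against 38.9 RPKM without. Tceal7 had 7.01, 8.59, 0.434 and 0 RPKM at the same times, and no read at 24 h of KLA, against 9.16 RPKM without. At 1 h both lay near their untreated level, Bex1 was lowest at 24 h, and Tceal7 had no read at 12 and 24 h.

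Genes of lipid metabolism made up 13. Pparg (NM_011146, chr6:115372084-115440419) had 64.1, 70.2, 5.01 and 2.77 RPKM at 0, 1, 6 and 12 h. Pparg had 3.59 RPKM at 24 h with KLA, against 64.0 RPKM without, a 17.8-fold difference (10.9 to 31.0). Fabp4 (NM_024406, chr3:10204343-10208576), the fatty acid-binding protein that PPARγ drives, was the most abundant of the 140. It had 834 RPKM without KLA, 1846 after 1 h, 103 after 6 h and 136 after 12 h. With KLA for 24 h it had 74.2 RPKM, against 721 RPKM without. Its 1 h library stands above all others and its 3 late KLA libraries below all others.

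Lpin1 encodes lipin 1, which makes diacylglycerol and co-activates transcription. It was 22.9-fold (10.8 to 58.0), 41.3-fold (15.8 to 154) and 26.7-fold lower (12.7 to 67.4) at 6, 12 and 24 h. Nceh1, a hydrolase of cholesterol esters, had 35.8 RPKM at 24 h of KLA, against 178 RPKM without. Cyp27a1, which makes 27-hydroxycholesterol, had 1.56 and 1.51 RPKM at 6 and 12 h, and 0.396 RPKM at 24 h of KLA, against 11.0 RPKM without. Hpgds, the prostaglandin D synthase of blood cells, had 6.92 RPKM at 24 h of KLA, against 69.9 RPKM without. Daglb (diacylglycerol lipase), Galc (galactosylceramidase), Sptssa (a subunit of the enzyme that starts sphingolipid synthesis), Acaa2 (β-oxidation), Abcd2 (a peroxisomal transporter), Pnpla7, Phospho1 and Dhrs3 complete the group.

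From a list of 19 tested PPARγ and lipid-storage genes, 5 were at least 2-fold lower at all 3 times (3.59% of all tested genes): Pparg, Fabp4, Acaa2, Plin2 and Lipa. Lipa, the lysosomal acid lipase gene, had 323, 246 and 168 RPKM at 6, 12 and 24 h of KLA, against 1171 and 1275 RPKM in the untreated 1 to 12 h and 24 h libraries. The scavenger receptor genes of the same list differed among themselves. Cd36 had log2 ratios of -0.38, -1.16 and -2.38 at 6, 12 and 24 h, and Msr1 of 2.62, 2.65 and 1.71.

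**Figure D2:**
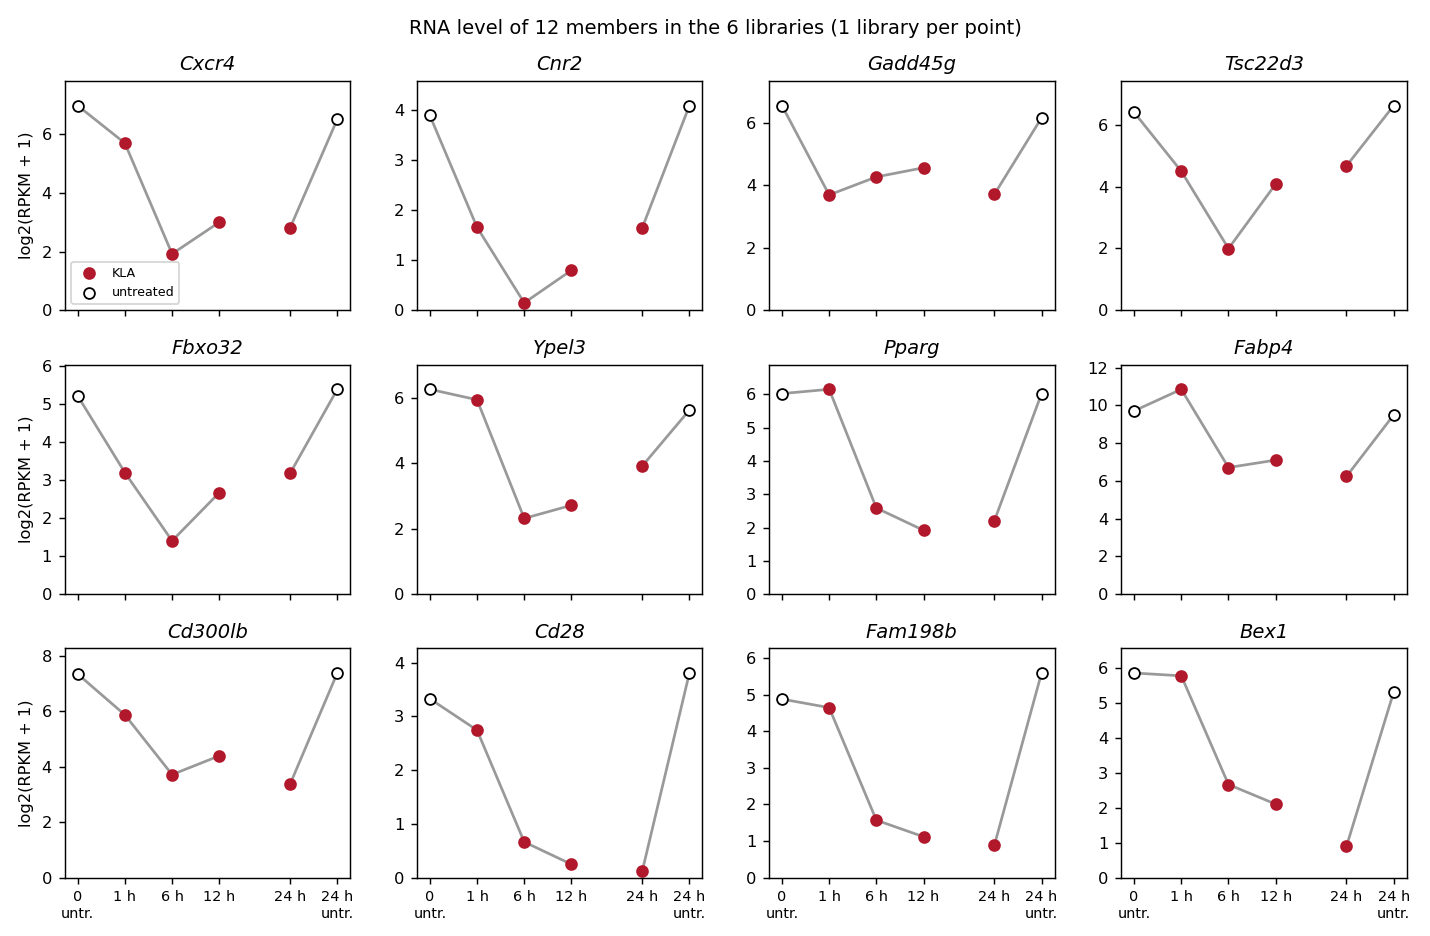
RNA level of 12 of the genes, as log2(RPKM + 1), in the 6 libraries. The untreated 1 to 12 h library (marked 0) and KLA at 1, 6 and 12 h are joined by a line. KLA 24 h stands beside its own untreated control. Each point is 1 library, and the vertical scale starts at 0 and differs between panels. Gadd45g is at its lowest at 1 h, Fabp4 at its highest at 1 h, and Tsc22d3, Fbxo32 and Ypel3 at their lowest at 6 h.

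Genes of growth arrest, stress and atrophy numbered 8, and all 8 were below 0 at 1 h on the log2 scale relative to all genes, as were 102 of the 140 and 50.0% of all tested genes. Sesn1 encodes a stress-induced inhibitor of mTORC1 signalling, Fbxo32 the ubiquitin ligase atrogin-1 of wasting muscle, and Bnip3l a mitophagy receptor. Gadd45a and Gadd45g are growth arrest genes, and Ypel3, Klhl9 and Trp53inp1 complete the group. Fbxo32 (NM_026346, chr15:58007434-58046447) had 36.2, 8.17, 1.64 and 5.36 RPKM at 0, 1, 6 and 12 h. Fbxo32 had 8.03 RPKM at 24 h with KLA, against 41.0 RPKM without. Sesn1 had 28.0, 11.5, 1.29 and 2.82 RPKM, and 3.58 RPKM at 24 h of KLA, against 29.6 RPKM without. Tsc22d3 (NM_010286, chrX:137074068-137077726) encodes GILZ, a glucocorticoid-induced inhibitor of inflammation. It had 83.5, 21.6, 2.99 and 16.0 RPKM at 0, 1, 6 and 12 h, and 24.5 RPKM at 24 h of KLA, against 97.2 RPKM without. All 3 were lowest at 6 h and higher again at 12 and 24 h.

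Of 30 tested genes in a list of FOXO and glucocorticoid receptor targets and factors, 15, 12 and 16 were at least 2-fold lower at 6, 12 and 24 h (9.48%, 8.27% and 8.8% of all tested genes). At all 3 times 11 were at least 2-fold lower (3.59% of all tested genes). Of these, Tsc22d3, Sesn1, Fbxo32, Gadd45a, Ypel3, Tcp11l2 and Cxcr4 belong to the 140 and so were counted by selection. The other 4 were Foxo3, Foxo4, Irs2 and Pink1. Foxo3, itself a FOXO factor, had 1.31, 3.11 and 3.24 RPKM at 6, 12 and 24 h of KLA, against 12.2 and 9.63 RPKM in the untreated libraries. The list was not uniform. Fkbp5, a classical glucocorticoid target, had log2 ratios of 1.05, 0.28 and 1.15 at 6, 12 and 24 h, and Ddit4 of 0.73, 1.15 and 2.57. Outside this list, Nr3c1, which encodes the glucocorticoid receptor itself, had 1.26, 0.69 and 0.25.

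Transcription and chromatin genes numbered 10. Besides Pparg and Tsc22d3 these included Dnmt3a (a DNA methyltransferase), Hdac5 (a histone deacetylase), Hist1h1c (a linker histone), Cenpa (the centromeric histone), Mxd4 (an antagonist of MYC), Cdca7l and Zfp395. Dnmt3a had 16.7 and 26.1 RPKM at 6 and 12 h, and 17.2 RPKM at 24 h of KLA, against 112 and 119 RPKM in the untreated libraries. Among 25 tested macrophage transcription factors 2 were at least 2-fold lower at all 3 times (3.59% of all tested genes), while 6 of 25 were at least 2-fold higher at 6 h (13.9%). Among 19 tested nuclear receptors and clock output factors, 2 were at least 2-fold lower at all 3 times (3.59% of all tested genes). These were Pparg, counted by selection, and Dbp. Dbp was weakly expressed, with 0.251, 0.975 and 0.223 RPKM at 6, 12 and 24 h of KLA, against 4.33 and 5.30 RPKM in the untreated libraries.

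Regulators of small GTPases and the cytoskeleton numbered 15. The GTPase-activating proteins Arhgap18, Arhgap19 and Arhgap25 and the exchange factors Arhgef6 and Rapgef6 set the activity of small GTPase switches. Tns1 (tensin 1, which links integrins to actin) had 17.0, 14.4, 0.340 and 1.16 RPKM at 0, 1, 6 and 12 h, and 0.944 RPKM at 24 h of KLA, against 14.4 RPKM without. Arhgap18 had 18.2 RPKM at 1 h of KLA, against 14.6 RPKM without, and 0.583 and 1.02 RPKM at 6 and 12 h. The group's median log2 ratio at 1 h was 0.00. From a list of 49 tested regulators of small GTPases, 12 were at least 2-fold lower at all 3 times (3.59% of all tested genes), 5 of them among the 140. Arhgap9 and Dock2 were others, and 5 of the 49 were at least 2-fold higher at 6 h (13.9%).

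Kinases, adaptors and signalling genes numbered 16. Matk, a kinase that phosphorylates the inhibitory tail of Src kinases, had 51.8, 35.7, 7.31 and 1.11 RPKM at 0, 1, 6 and 12 h. Matk had 1.22 RPKM at 24 h with KLA, against 29.1 RPKM without, a 23.9-fold difference (10.7 to 66.4). Tec (a cytoplasmic tyrosine kinase), Prkch (a protein kinase C), Map4k1 and Map3k1 (MAP kinase pathway) and Camk1 (calmodulin-dependent) were 3.49- to 6.50-fold lower at 24 h. Socs6, a suppressor of cytokine signalling, had 2.50, 2.80 and 4.78 RPKM at 6, 12 and 24 h of KLA, against 15.5 and 17.8 RPKM in the untreated libraries. In a list of 46 tested kinases, phosphatases and signal enzymes, 8 were at least 2-fold lower at all 3 times (3.59% of all tested genes). These were Matk, Tec, Prkch, Map4k1, Map3k1, Camk1, Plcb2 and Hpgds, a prostaglandin D synthase gene that the list also holds. All but Plcb2 are among the 140 and so were counted by selection.

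Sugar-transferring enzymes of the Golgi were represented by St6gal1, Gcnt1 and Galnt9. St6gal1 (NM_001252506, chr16:23290543-23360423), which adds α2,6-linked sialic acid, had 31.5, 25.7, 1.25 and 1.11 RPKM at 0, 1, 6 and 12 h. St6gal1 had 3.33 RPKM at 24 h with KLA, against 30.9 RPKM without. Gcnt1, which branches O-glycans, was 18.2-fold (8.96 to 42.9), 21.4-fold (10.1 to 54.2) and 13.2-fold lower (7.96 to 23.6). These 3 were the only genes at least 2-fold lower at all 3 times among 26 tested enzymes of sialyl and glycan transfer (3.59% of all tested genes). All 3 were counted by selection.

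Other enzymes of metabolism (10) and 18 transporters, channels and membrane traffic genes were among the 140. Cmbl, a hydrolase gene, was among the lowest of all, at 22.2, 16.0, 0.810 and 0 RPKM at 0, 1, 6 and 12 h, and at 0.359 RPKM (1 read) at 24 h of KLA, against 19.0 RPKM without. Idh1 (cytosolic isocitrate dehydrogenase, a source of NADPH) had 156, 129, 13.6 and 28.9 RPKM at 0, 1, 6 and 12 h, and 31.9 RPKM at 24 h of KLA, against 188 RPKM without. Glul (glutamine synthetase), Hnmt (histamine methyltransferase), Pdxk (pyridoxal kinase), Hyal1 (hyaluronidase), Tst (a sulfur transferase) and Dio2 (the deiodinase that activates thyroid hormone) were 3.24- to 10.2-fold lower at 24 h. Snx5, a sorting nexin of endosomes, was abundant, with 94.8 RPKM at 24 h of KLA, against 296 RPKM without. Mcoln3 and Tpcn1 are cation channels of endosomes and lysosomes, Steap3 a ferrireductase, Slc46a3 and Slc37a2 solute carriers, and Kcnj2 an inward rectifier potassium channel.

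The last 24 genes have other or little-known roles. Fam198b (NM_133187, chr3:79689852-79750200) had 28.4, 24.0, 1.97 and 1.17 RPKM at 0, 1, 6 and 12 h, and 0.846 RPKM at 24 h of KLA, against 47.2 RPKM without, a 55.8-fold difference (33.6 to 100). Tcp11l2 (NM_146008, chr10:84039692-84077100) had 22.7 and 14.8 RPKM at 0 and 1 h, no read at 6 h and 0.341 RPKM at 12 h. It had 1.25 RPKM at 24 h of KLA, against 18.7 RPKM without. At 6 h it was at least 43.0-fold lower.

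Alternative activation, cell cycle and TLR signalling were checked as lists with no gene among the 140. Against 3.59% of all tested genes, in the first 3 of 28 tested genes (Clec10a, Tgfbr2 and Gas6) were at least 2-fold lower at all 3 times, and in the cell cycle list 2 of 29 (Cdkn1c and Cdkn2c). None of 29 tested Toll-like receptors, their adaptors and kinases and inhibitors of their signalling was. Of these 29, 17 were at least 2-fold higher at 6 h (13.9% of all tested genes). At 6, 12 and 24 h, 4, 7 and 10 of the 28 alternative activation genes were at least 2-fold lower. Of all tested genes 9.48%, 8.27% and 8.8% were. At least 2-fold higher were 4, 4 and 3 of the 28, against 13.9%, 11.8% and 10.8% of all tested genes.

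After 1 h of KLA most of the 140 genes lay within 2-fold of their untreated level, relative to all genes. The median log2 ratio was -0.21, and 102 of the 140 lay below 0, against 50.0% of all tested genes. At least 2-fold lower were 15 of the 140 (10.7%), against 2.12% of all tested genes. At or below -1.5 were 5, against 0.376%. Higher by 2-fold were 2 of the 140, against 3.95%. The 1 h values share their untreated library with those that chose the genes at 6 and 12 h, so a high value there would make a gene low at all of them. Against the untreated 24 h library, which the rule used at 24 h, 13 of the 140 were at least 2-fold lower (2.08% of all tested genes), and 10 were so against both libraries (0.799%). Higher by 2-fold against the 24 h library were 2 (5.07%). The 140 genes had at least 4.42 and 3.57 RPKM in the untreated 1 to 12 h and 24 h libraries. Tested genes needed only an RPKM of 1 in 2 libraries, and the scale understates changes of weakly expressed genes. The part of expression level in the 1 h shares was not tested.

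**Figure D3:**
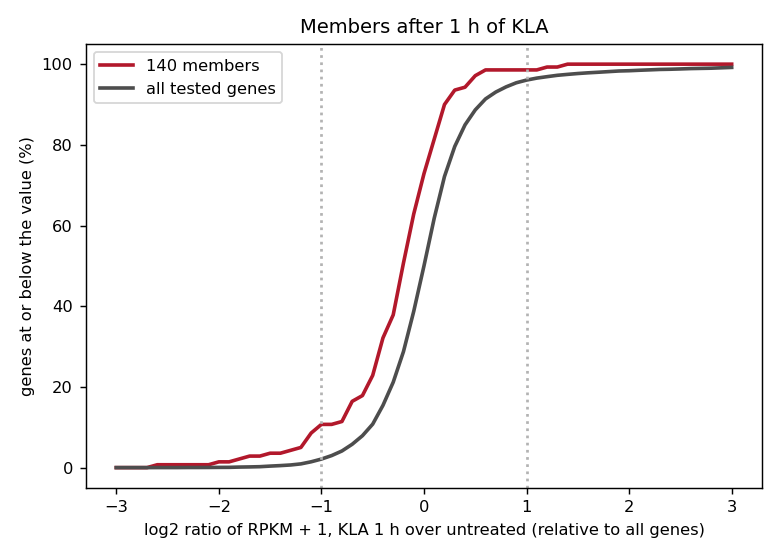
Cumulative share of genes (vertical axis, %) against the log2 ratio of KLA 1 h over untreated, relative to all genes (horizontal axis), for the 140 genes and for all tested genes. Dotted lines mark 2-fold lower and higher. At -1 the curves stand at 10.7% for the 140 genes and 2.12% for all tested genes.

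Lowest at 1 h was Gadd45g (NM_011817, chr13:51942044-51943843), with 93.3, 12.0, 18.4 and 22.7 RPKM at 0, 1, 6 and 12 h, and 12.1 RPKM at 24 h of KLA, against 70.9 RPKM without. It was 7.79-fold lower at 1 h (5.34 to 11.7), more than at 6 or 12 h. Cnr2 was 6.42-fold (3.98 to 10.9), Fbxo32 4.43-fold (3.67 to 5.39), Thbd 4.35-fold (2.61 to 7.62) and Tsc22d3 3.87-fold lower (3.10 to 4.87) at 1 h. Cd300lb, Lrrc14b, Galnt9, Sh2d3c, Lpar6, Cxcr1, Cxcr4, Sesn1, Zfp395 and Socs6 had log2 ratios between -1.31 and -1.03.

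Both the 6 h and the 24 h ratio were used in the choice, so their difference is a description. The log2 ratio was higher at 24 h than at 6 h in 72 genes and lower in 68, with a median difference of 0.02, against -0.04 over all tested genes. It was higher by 1 or more in 8 genes (7.47% of all tested genes): Tsc22d3, Ypel3, Tpra1, Tst, Fbxo32, 6430548M08Rik, Tcp11l2 and C77080. Ypel3 had log2 ratios of -3.49, -3.22 and -1.62 at 6, 12 and 24 h, and Tsc22d3 of -3.94, -1.99 and -1.85. It was lower by 1 or more in 18 genes (9.58%). Fam198b (-2.84, -3.43 and -4.61), Bex1 (-2.73, -3.43 and -4.32), Rgs18 (-1.82, -2.89 and -3.41), Cd93 (-2.07, -3.19 and -3.65) and Dlg3 (-1.65, -1.52 and -3.21) led these. The 6 h and 24 h ratios use different untreated libraries. Those of the 8 genes had a median log2 ratio of -0.24 between them (24 h over 1 to 12 h) and those of the 18 genes of 0.32, and the part of the controls in these differences was not tested.

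**Figure D4:**
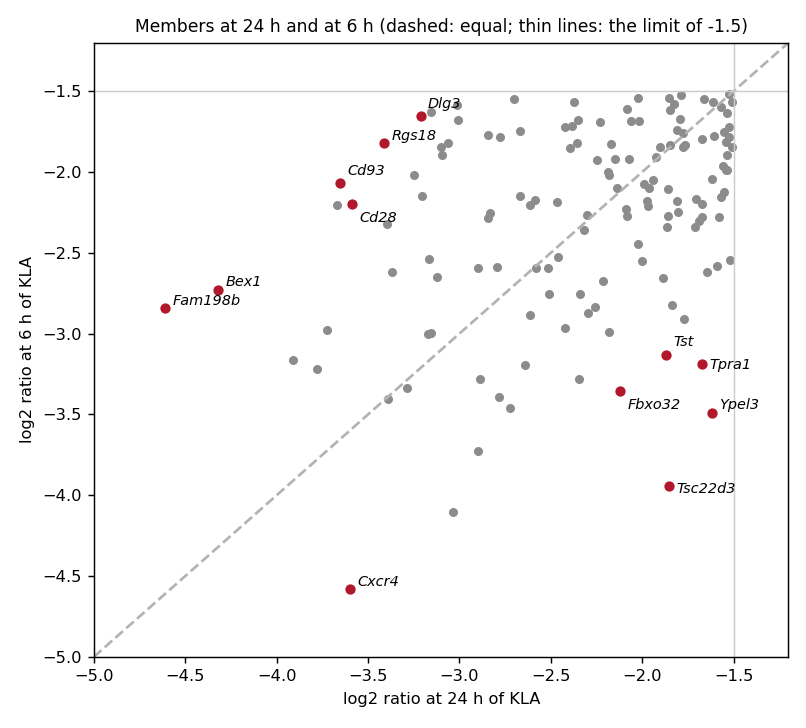
Each point is 1 of the 140 genes, with its log2 ratio at 24 h of KLA on the horizontal axis and at 6 h on the vertical axis, each against its own untreated library and relative to all genes. Genes above the dashed line of equality were lower at 24 h. Fam198b and Bex1 lie far to the left, at -4.61 and -4.32, and Tsc22d3 and Ypel3 low on the right, at -3.94 and -3.49 on the vertical axis.

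Both untreated libraries entered the choice, so how they compare in these genes is a description. The median log2 ratio of untreated 24 h over untreated 1 to 12 h was 0.06. None of the 140 was at least 2-fold lower (2.11% of all tested genes, and 0.376% at or below -1.5) and 1 was at least 2-fold higher (0.886%). That gene was Rgs18, a regulator of G protein signals in blood cells, with 19.6 RPKM in the 24 h control and 8.30 RPKM in the other. Galnt9, Tmem158 and Cdk20 had the lowest log2 ratios, -0.97, -0.89 and -0.87.

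Binding of LXR, the oxysterol receptor that controls cholesterol efflux genes, was not used to choose the genes. A peak centre lay within 1 kb of the start of 84 of the 140 (60.0%), against 52.9% of all tested genes and 57.9% of genes with RPKM of at least 5 in an untreated library. Within 10 kb the shares were 90.0%, against 75.6% and 80.7%, and within 50 kb 97.1%, against 92.8% and 95%. The 140 genes had a median of 8 LXR peaks within 50 kb of the start, against 4 in all tested genes and 5 in those with RPKM of at least 5 in an untreated library. At least 3 peaks within 10 kb were found in 72 of the 140 (51.4%), against 22.3% and 26.5%. In the 474 genes at least 1.5 higher on the log2 scale at all 3 times it was 30.6%. The 140 genes spanned more of the genome, with a median span of 26.4 kb against 20.1 kb in all tested genes. Among genes of 10 to 60 kb span the shares were 52.6% of 76, against 25.9% of 3839 with RPKM of at least 5 in an untreated library. The counts of peaks per gene for either factor, the set of 474 genes and the span limits were not planned in advance. The list is of 1 LXR experiment and genes share peaks, so no test was made. By its title and header the LXR list comes from cells given GW3965, while the treatment label reads as a control, and whether LXR binding near these genes differs with KLA is not analysed here.

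**Figure D5:**
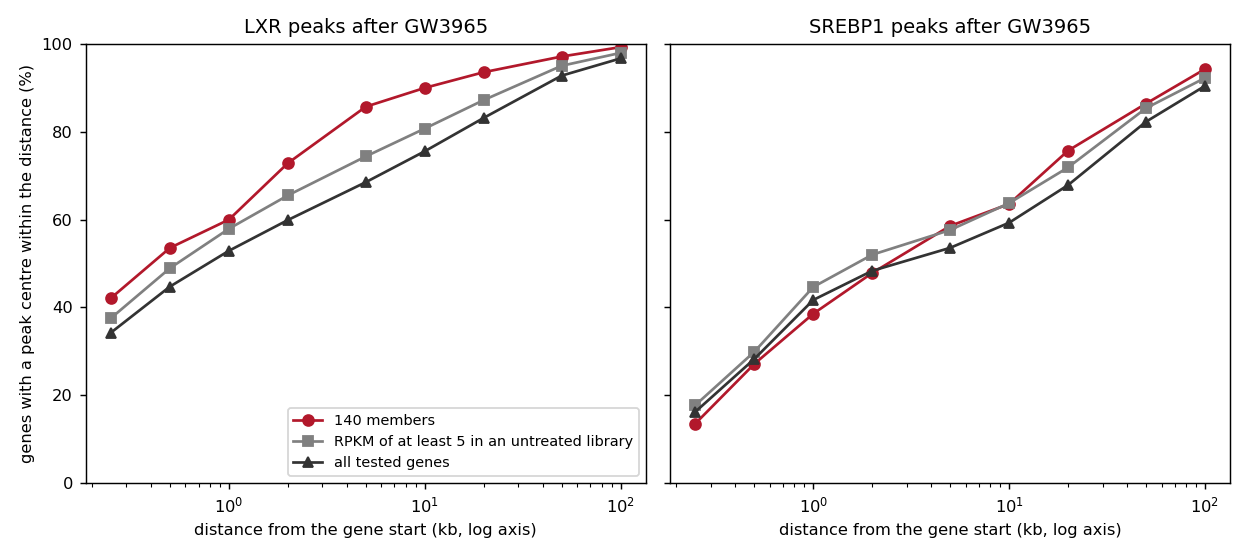
Share of genes (vertical axis, %) with a peak centre within the distance on the horizontal axis (kb, log axis), for LXR on the left and SREBP1 on the right. At 10 kb the LXR curve of the 140 genes is at 90.0%, against 75.6% for all tested genes, and the SREBP1 curve at 63.6%, against 59.3%.

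The strongest LXR peaks near a start, by the authors' score, were those of Tcp11l2 and Tst. The Tcp11l2 peak (chr10:84039385-84039569, mm9) lies 215 bases before the start and ranks 20 of 40660 peaks. The Tst peak (chr15:78236930-78237114), 733 bases before the start, ranks 37. Idh1 has a peak 926 bases into the gene (chr1:65224698-65224882, rank 627) and Gadd45a 12 bases before its start (rank 1632). Tmem154 had most LXR peaks within 50 kb, 20, and the neighbours Cd93 and Thbd had 19 and 18. The 17 peaks each of Cd300a and Cd300lb are partly the same, as their windows overlap. No LXR peak lay within 50 kb of Gm14461, Tceal7, Angptl7 and Dio2.

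For SREBP1, which drives sterol and fatty acid synthesis genes, the shares lay closer to those of other genes. A peak centre lay within 1 kb of 54 of the 140 starts (38.6%), against 41.7% of all tested genes and 44.7% of those with RPKM of at least 5 in an untreated library. Within 10 kb it was 63.6%, against 59.3% and 63.8%, and within 50 kb 86.4%, against 82.3% and 85.4%. The median number within 50 kb was 2 in all 3 sets, and at least 3 peaks within 10 kb were found in 13 of the 140 (9.29%), against 4.64% and 5.51%. Both factors had a peak within 1 kb in 38 genes, LXR alone in 46, SREBP1 alone in 16 and neither in 40. Taking the SREBP1 peak nearest to each start, those of Daglb, Hist1h1c and Idh1 were among the highest-ranked within 1 kb. The Idh1 peak lies 13 bases into the gene.

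Reads of overlapping genes cannot be told apart unless strand was used in counting, which the labels and headers do not state. The span of 24 of the 140 genes overlaps another gene, and in 5 the other gene had the higher mean RPKM: Lrrc14b, Tmod1, Neurl2, Angptl7 and Lpar6. Hist1h1c, Aph1c, Mettl7a1 and Sh2d1b1 belong to families with close relatives, and how reads shared with these were assigned is not stated in the labels or headers. The table lists 1 copy in the genome for each of the 140 genes.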

How the data were processed

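RNA values are RPKM, deposited by the authors in 1 table on build mm9 for 6 poly(A) RNA libraries, 1 per condition. The submitters' processing notes list Bowtie 0.12.7, STAR, HOMER and mm9. Peaks were called by the authors with HOMER, per the file headers, at a false discovery rate of 0.001 and a ratio of at least 4-fold over input, with tag counts as a signal normalised to 10000000 tags and a peak score. The lists hold 40660 LXR and 13984 SREBP1 peaks. In the LXR list GW3965 is given as 5 h, with input DNA of KLA-treated cells, per the file headers, although that sample's treatment label reads as a control. The SREBP1 list used an untreated input.

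Each symbol was represented by its transcript of highest mean RPKM, of 200 bases or more. Log2 ratios of RPKM + 1 (a pseudocount of 1) were centred on the median of the 10383 genes that reached an RPKM of 1 in 2 libraries. These medians were -0.16, -0.46, -0.33 and -0.10 at 1, 6, 12 and 24 h. The scale understates changes of weakly expressed genes, while folds are plain RPKM ratios. Reads were recovered from RPKM, transcript length and library totals of 2205187 to 2674826, with 99.97% of values whole within 0.01 read. Intervals are 95% exact conditional binomial (Clopper-Pearson) on these reads, and 3 reads per library set the floor. Python 3.11.15, pandas 2.3.3 and scipy 1.17.1 were used, and the steps were tested on simulated data. Distances run from a transcript's start to the peak centre.

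With 1 library per condition no test was made. The genes, the 12 lists and the role groups were chosen with earlier results of these data known. Genes were named from these classes: the lowest counting limits at 6, 12 and 24 h, the most abundant untreated, the extremes at 1 h, at the rule's limit, between 6 and 24 h and between the controls, members of the lists, genes with a peak within 1 kb, and neighbours within 100 kb. Others were named after their values were seen, to describe the role groups. Alternatives were other pseudocounts, scalings, filters, thresholds, controls and peak windows. Of the 140 genes 2 are not reported here by name or drawn in the heat map. No other sample was used.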

Additional observations from a re-analysis of the deposited data

Results flagged for a closer look

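Fabp4 and Hist1h1c were at least 2-fold higher at 1 h relative to all genes, opposite to their later values. Fabp4 was 2.21-fold higher at 1 h of KLA than in untreated cells (95% counting interval 2.07 to 2.37) and 8.07-fold lower at 6 h (6.82 to 9.59). Hist1h1c was 1.96-fold higher at 1 h (1.40 to 2.78) and 7.21-fold lower at 12 h (3.40 to 17.6). The difference between the times was not tested, as each has 1 library.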

How the results depend on the processing

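The rule gave 140 genes. It gave 80 with a pseudocount of 3 (76 of them among the 140), 229 with no centring, 342 at a threshold of -1, 46 at a threshold of -2 and 211 when 6 h was left out of the rule. The remaining settings gave 103 to 196, the lowest when a gene had to pass against both untreated libraries at all 3 times. The median log2 ratio at 1 h was -0.37 with no centring and -0.24 to -0.17 under 5 other settings. The count at least 2-fold lower at 1 h was 10 to 16. The median difference between 24 h and 6 h was 0.39 with no centring, -0.02 with a pseudocount of 3 and 0.07 to 0.08 otherwise, so its sign depends on the setting. The share with an LXR peak was 90.0% at 10 kb, 97.1% at 50 kb and 40.7% with the higher-scoring peaks only, against 60.0% as reported. For SREBP1 these were 63.6%, 86.4% and 29.3%, against 38.6%. Wider windows, fewer peaks and other thresholds change these values by construction, and for a pseudocount of 3 the cause was not tested. The settings that left a time out of the rule, required both untreated libraries or scaled 1 h by TMM were chosen after seeing the data. No paired analysis was possible because each condition had 1 library. Depth limits low genes: 7, 10 and 4 of the 140 had no read at 6, 12 and 24 h of KLA.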
